A study of Drosophila melanogaster with 25 samples.

Results

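The comparison described here asked whether brains of male and female Drosophila melanogaster answered photodynamic exposure (PDE) differently. It used all 25 of the 25 RNA-seq libraries, and it tested 7985 of the 16060 genes in the deposited table, those with at least 1 RPKM (reads scaled by gene length and library total) in at least 5 libraries. For each gene the change in females, PDE minus control, was subtracted from the change in males, both on log2(RPKM + 1), so a positive value means a more positive change in males. The libraries were grouped by the labels alone, and genes entered by this level filter alone. The groups were female control with 5 libraries, female PDE with 7, male control with 7 and male PDE with 6, all labelled brain cells. PDE flies had received long-term photodynamic exposure and controls were normal flies. Strain, age, light dose, photosensitiser and the number of brains in a library are not stated in the sources used here. The labels do not say whether the libraries of a group came from separate cultures of flies, so p-values measure the spread between these samples only.

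Photodynamic exposure combines a light-absorbing compound with light and thereby generates reactive oxygen species. Flies answer oxidative damage with antioxidant and detoxifying enzymes, with secreted stress peptides such as the Turandot proteins, and with transcription factors that include Xrp1 and the Nrf2 homologue cnc. Male and female brains differ already without treatment: males carry 1 X chromosome, whose transcription is raised by the dosage compensation complex with its noncoding RNAs roX1 and roX2. An interaction test asks a narrower question than a comparison of 2 gene lists, because a gene can pass a threshold in 1 sex and miss it in the other without differing between them.

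Library totals recovered from the table ran from 8.88 to 58.7 M (mega) reads, and they moved with the groups in opposite directions in the sexes. Median totals were 23.4 M in female controls, 26.2 M in female PDE, 31.7 M in male controls and 26.5 M in male PDE libraries. The log2 change of the total was 0.51 in females and -0.61 in males, a difference of -1.13 (exact two-sided permutation p = 0.000947; Benjamini-Hochberg adjusted p = 0.0256 over 27 tests of library measures). The number of genes at 1 RPKM or more lay between 7551 and 7851 in every library, and its difference of changes gave p = 0.718 in the same exact test. Among neuron markers 10 of 11 had a median of at least 1 RPKM, and nSyb, a synaptic vesicle protein, ranged from 271 to 317 RPKM; elav, another neuronal marker, was listed at 0 to 0.0466 RPKM in all libraries. The glial transcription factor repo ranged from 23.2 to 35.1 RPKM, whereas the glial genes moody and Tret1-1 were at 0 throughout. How reads of overlapping genes were counted is not stated in the sources used here, so a value at or near 0 may not mean that such a gene was silent. Retinal genes varied widely: their summed RPKM ran from 193 to 10598, and 5 libraries with the highest retinal score (female control 4, male control 4, 5 and 6, and male PDE 3) stood apart. The difference of changes of that sum was -0.41 (exact permutation p = 0.743), and values without those 5 libraries are given where they bear on a gene. In such bulk samples fewer cells of a type and less RNA per cell cannot be told apart.

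No gene passed the test of the difference of changes. Limma with Benjamini-Hochberg adjustment called 0 of 7985 genes (0%), with a smallest adjusted p of 0.999, and limma voom on the recovered reads also called 0. An unadjusted limma p under 0.05 was reached by 177 genes (2.22%), against 399 that a flat distribution of p would give, and by 211 (2.64%) with voom. Of the 177 genes, 95 (1.19% of all tested) were more positive in males and 82 (1.03%) more negative. In 165 of them (93.2%) the female and the male change had opposite signs, which the choice of genes by a large difference favours; over all genes tested it was 44.7%.

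The precision of this null result can be stated in log2 units. The median difference over all genes was 0.001 and its median standard error 0.108. The 95% interval of a gene reached 0.224 to either side in the median gene, with quartiles of 0.17 and 0.31. It lay wholly within 0.5 of 0 for 6670 genes (83.5%) and within 1 of 0 for 7610 (95.3%). A difference of that larger size, 1 log2 unit, was therefore outside the interval for most genes, while smaller ones were often inside it. The scale is log2(RPKM + 1), which understates changes of low genes, so for them these bounds are not bounds on fold change. Female controls, the smallest group, also had the widest spread, with a median within-group SD of 0.166 log2 units against 0.122 in female PDE, 0.106 in male control and 0.123 in male PDE libraries. Across genes the female and male changes, which share no library, had a Pearson r of 0.51, given as a description since genes are not independent replicates.

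**Figure D1:**
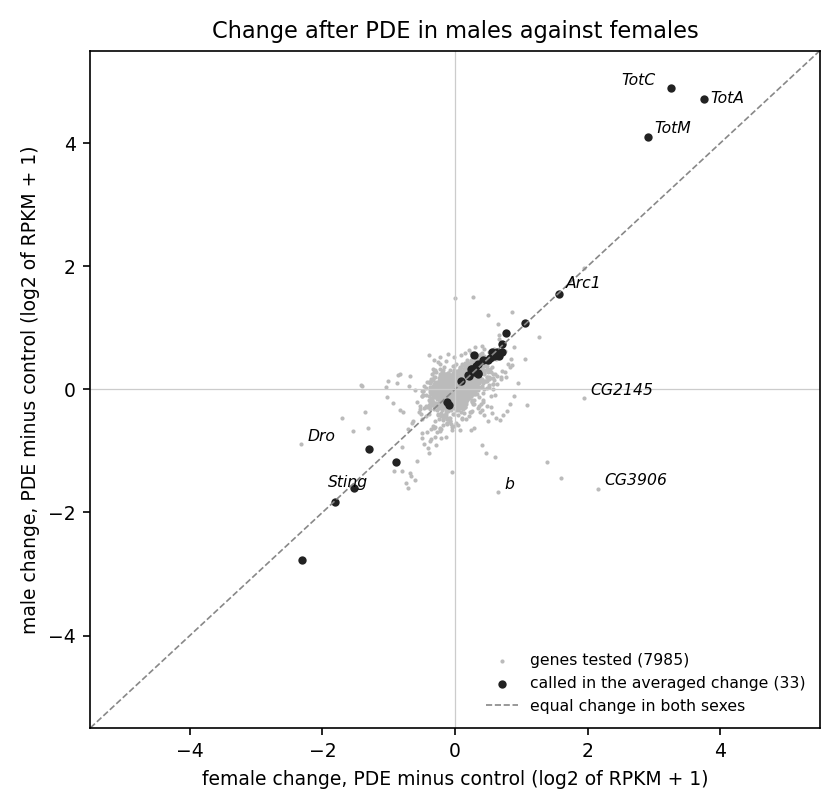
Change after PDE in males (vertical axis) against females (horizontal axis), both on log2(RPKM + 1). Each grey point is 1 of 7985 genes tested, black points are the 33 genes called in the change averaged over the sexes, and the dashed line marks equal changes; the black points lie along that line, with TotA, TotC and TotM above it, and the genes far from it (b, CG2145, CG3906 and Dro among those labelled) are grey.

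The genes that did change with PDE, averaged over the sexes, give the clearest view of what males and females shared. Limma with Benjamini-Hochberg adjustment called 33 genes in that averaged change (0.413%), of which 26 rose (0.326%) and 7 fell (0.0877%). For 32 of the 33 the 95% interval of the male minus female difference contained 0. For 24 of the 33 it excluded a difference as large as the averaged change itself. The selection on the averaged change favours genes that moved the same way in both sexes, so no more is read from this. The male change was larger in size for 22 genes and the female change for 11. Every one of the 33 moved in the same direction in males and females.

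Xrp1, a bZIP transcription factor of the DNA damage and cell competition responses, had the smallest p of the averaged change (limma adjusted p = 5.02e-08). It measured 22.3, 17.4, 16.5, 18.2 and 19.2 RPKM in female controls and 28.4 to 32.9 in female PDE libraries (median 31.0). In males it ran from 15.8 to 20 (median 17.8) in controls and from 23.9 to 31.3 (median 29.2) after PDE. The groups did not overlap in either sex, and the changes of 0.71 in females and 0.61 in males differed by -0.09 (95% interval -0.31 to 0.12). Gadd45, a stress-induced gene of the same response, rose by 0.59 in females and 0.54 in males, a difference of -0.06 (-0.44 to 0.33). The DNA end-binding protein Ku80 differed by -0.09 (-0.36 to 0.18) and the ribonucleotide reductase subunit RnrL by 0.08 (-0.18 to 0.35), both called in the averaged change.

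Arc1 and Arc2 encode capsid-forming proteins. Arc1 measured 30.6, 26.7, 21.0, 23.7 and 20.6 RPKM in female controls against 55.7 to 99.0 in female PDE libraries (median 73.7), with no overlap. Male controls ran from 17.5 to 35.7 (median 23.5) and male PDE libraries from 31.3 to 121 (median 79.2), where male PDE 2 at 31.3 fell within the control range. The Arc1 changes of 1.57 and 1.54 differed by -0.03 (95% interval -0.68 to 0.63), and those of Arc2, 1.05 and 1.07, by 0.02 (-0.47 to 0.52). These near-zero differences have no stable sign: that of Arc1 turned positive under 2 of the 13 alternatives in the processing and in 8 of the 25 fits without 1 library, and that of Arc2 turned negative under 3 and in 10.

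The Turandot genes, which encode secreted stress peptides, had the largest changes and the widest intervals of the 33 called genes. TotC measured 0, 2.59, 0.759, 11.2 and 3.23 RPKM in female controls, and 2.46 to 180 (median 40.1) after PDE, so the female groups overlapped. In males it ran from 0.23 to 1.0 (median 0.416) in controls and from 11.9 to 192 (median 45.4) after PDE, without overlap. The PDE levels of the sexes were thus alike in range, and the male controls were lower than 3 of the 5 female controls. The change was 3.26 in females and 4.89 in males, a difference of 1.64 with an interval from -0.49 to 3.76 (limma unadjusted p = 0.126, adjusted p = 0.999). TotM gave 1.2 (-1.04 to 3.44) and TotA 0.96 (-1.21 to 3.13). All 3 Turandot genes tested were more positive in males, a direction that held in all 38 alternative settings, but their intervals span both no difference and a difference of 3 log2 units.

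Sting, the receptor of cyclic dinucleotides in antiviral defence, fell in both sexes. It measured 28.9, 26.8, 7.17, 29.9 and 25 RPKM in female controls and 3.05 to 14.9 (median 3.96) in female PDE libraries. Male controls ran from 8.12 to 72.5 (median 15.3) and male PDE libraries from 3.65 to 6.25 (median 4.67), without overlap, while in females control 3 lay below PDE 1. The changes of -1.81 and -1.83 differed by -0.02, but the interval from -1.32 to 1.28 left room for a sizeable difference in either direction. CG9377 fell by 1.29 in females and by 0.97 in males, a difference of 0.32 (-0.15 to 0.79), with no overlap of control and PDE in either sex. Such non-overlap in both sexes and the same direction occurred for 4 genes of all tested (0.0501%), namely CG9377, Arc2, CG14695 and Xrp1, and in opposite directions for 0 genes (0%). Counting these 4, control and PDE did not overlap for 25 genes in females (0.313%) and for 29 in males (0.363%).

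Among detoxifying and neuronal genes of the called set the sexes were close. GstE1, a glutathione S-transferase, measured 87.6, 134, 99.4, 143 and 132 RPKM in female controls and 135 to 232 after PDE, and 105 to 149 against 137 to 287 in males. In both sexes a control lay above the lowest PDE library. Its changes of 0.63 and 0.60 differed by -0.03 (-0.46 to 0.40). Sarm, the NADase that executes axon degeneration, rose by 0.22 in each sex and had one of the narrowest intervals, -0.13 to 0.14. The O-GlcNAc transferase gene sxc, with changes of 0.09 and 0.14, had the interval -0.05 to 0.15. The 1 exception among the 33 was CG4887, for which the interval, -0.31 to -0.02, did not contain 0 (limma unadjusted p = 0.0328, adjusted p = 0.999). It measured 101, 110, 100, 94.3 and 114 RPKM in female controls and 92.4 to 102 after PDE, against 97.0 to 118 and 80.1 to 93.4 in males. All male PDE libraries lay below all male controls, and the female groups overlapped.

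**Figure D2:**
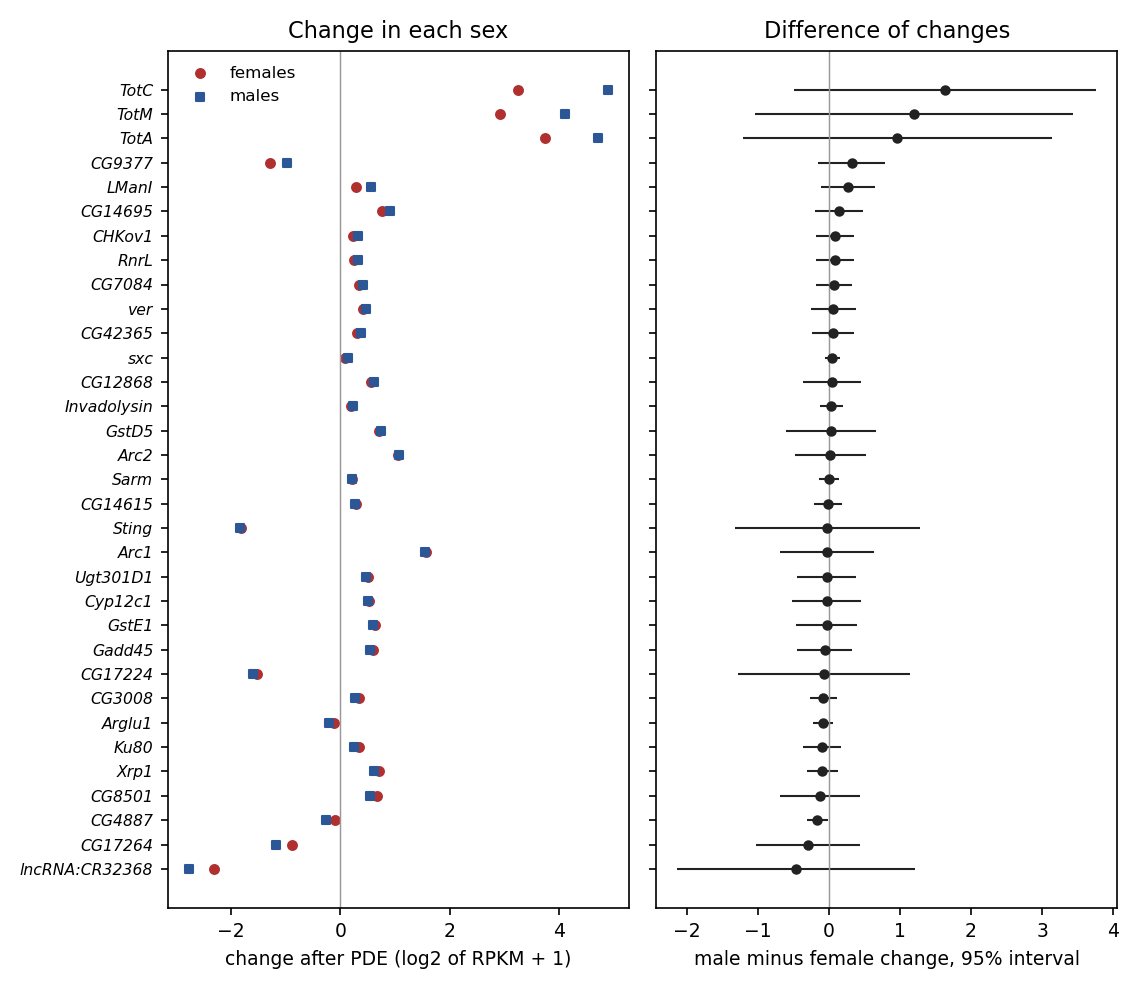
The 33 genes called in the averaged change: left, the change after PDE in females (circles) and males (squares) on log2(RPKM + 1); right, the male minus female difference with its 95% interval from limma. Differences cross 0 for 32 genes, CG4887 lies below it, and the widest intervals belong to TotC, TotM, TotA and lncRNA:CR32368.

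The genes ranked first by p describe the extremes of a test in which none was called. By rule, the 10 with the smallest p in each direction were taken among genes averaging at least 5 RPKM in the highest group. The direction of all 20 held in all 38 alternative settings, and each kept an adjusted p of at least 0.735. All 20 were picked by this same contrast, and the settings refit largely the same libraries. The kept direction is therefore no independent support. More negative in males were CG3847, CG1316, CG1578, rictor, mei-9, CG15717, CG15356, CG12991, Nt5b and CG7985. More positive were asRNA:CR43885, CG3335, Wwox, asRNA:CR45874, Alg-2, Pbgs, Rala, mRpL15, ova and CG33108. Of the 10 more negative genes 7 lay on the X chromosome, and of the 10 more positive genes 1 (Rala). Over all genes at an unadjusted p under 0.05 the X held 19 of the 82 more negative genes (23.2%) and 10 of the 95 more positive ones (10.5%), beside 16.5% of the genes tested. The X as a whole stood no further out than the autosomes, with 29 of 1315 genes (2.21%) under that p and a median difference of -0.01, against 148 of 6670 (2.22%) and 0.003.

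CG3847, at positions 6347103 to 6349236 of the X chromosome (dm6), was first on the negative side. It measured 12.8, 14.3, 11.4, 13.1 and 14.1 RPKM in female controls and 14.0 to 17.9 (median 15.6) in female PDE libraries. Male controls ran from 16.4 to 20 (median 17.9) and male PDE libraries from 16.1 to 18.1 (median 17.0). Female controls were the lowest group, and PDE females lay between them and the males, with 2 controls inside the PDE range. The change was 0.22 in females and -0.06 in males, a difference of -0.28 ± 0.08 (SE; 95% interval -0.45 to -0.12; limma unadjusted p = 0.00187, adjusted p = 0.999). The gene shares 221 bases with ND-B16.6 on the opposite strand, and whether the counting used strand is not stated in the sources used here.

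CG1316 on chromosome 3L showed the reverse arrangement, with males after PDE as the lowest group. Female controls measured 85.1, 85.7, 78.0, 80.1 and 89.3 RPKM, female PDE libraries 80.6 to 91.5 and male controls 80.7 to 91.1. Male PDE libraries ran from 73.9 to 82.5 (median 76.9), and 1 of the 6, at 82.5, exceeded the lowest male control. Female controls 3 and 4, at 78.0 and 80.1, and female PDE 7, at 80.6, also lay inside that range. The difference was -0.19 ± 0.05 (SE; interval -0.30 to -0.08; limma unadjusted p = 0.00192). CG1578 on the X had a similar form, with 24.8 to 27.8 RPKM in male PDE and 27.0 to 30.1 in male control libraries, and a difference of -0.15 (-0.24 to -0.06). CG15717 had the largest difference of the 20, -1.13 (-1.95 to -0.31). However, it shares 5548 of its 5614 bases with MFS10 on the same strand and rests on 1 to 19 recovered reads a library. Its value ran from -1.51 to -0.26 over the alternative settings. The value nearest 0 came on log2 of recovered reads per M plus 1, a scale that shrinks changes of genes with so few reads.

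The X-linked gene rictor encodes the defining subunit of TOR complex 2. It measured 7.84, 7.42, 6.88, 6.76 and 7.03 RPKM in female controls and 7.23 to 8.26 after PDE, against 6.11 to 7.20 and 5.97 to 6.87 in males. Values overlapped in both sexes, a little higher after PDE in females and a little lower in males. The difference was -0.19 (interval -0.32 to -0.06; limma unadjusted p = 0.00656). It was the only one of 18 tested genes of the insulin, TOR and FOXO list with an unadjusted p under 0.05.

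Both subunits of the XPF and ERCC1 endonuclease, which cuts damaged strands in nucleotide excision repair, were near the top with opposite signs. The XPF homologue mei-9 measured 5.25, 7.06, 5.10, 5.97 and 6.39 RPKM in female controls and 6.18 to 6.93 after PDE, and 5.27 to 6.39 against 4.63 to 6.05 in males. Its difference was -0.26 (interval -0.44 to -0.08; limma unadjusted p = 0.0076). Ercc1, named after its values were seen because it averaged under 5 RPKM, measured 4.21, 3.94, 3.35, 3.74 and 2.89 in female controls and 2.58 to 3.54 in female PDE libraries. In males it ran from 3.03 to 3.80 in controls and from 2.88 to 4.91 after PDE, where 5 of the 6 libraries lay above every control and male PDE 2 below them. The Ercc1 difference was 0.42 (0.17 to 0.66; limma unadjusted p = 0.00187, adjusted p = 0.999). The list of DNA break repair and replication genes, which holds neither, had 0 of 18 tested genes under an unadjusted p of 0.05, with 12 positive and 6 negative differences.

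On the positive side asRNA:CR43885, an antisense RNA gene on chromosome 3L, measured 31.3, 27.0, 40.0, 26.9 and 21.2 RPKM in female controls and 17.0 to 29.3 (median 24.4) after PDE. Male controls ran from 13.8 to 31.9 (median 18.7) and male PDE libraries from 25.9 to 30.5 (median 28.1). In males 1 control, at 31.9, lay above the narrow PDE range and the others below it. These levels rest on 25 to 86 recovered reads a library. The difference was 0.71 ± 0.21 (SE; interval 0.27 to 1.15; limma unadjusted p = 0.00275). A second antisense gene, asRNA:CR45874, with a difference of 0.40 (0.13 to 0.66), lies wholly within RpS9 on the other strand, and without strand the reads of both genes cannot be told apart.

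Other positive genes had narrow, small differences. Pbgs, the second enzyme of heme synthesis, measured 6.58, 7.98, 7.19, 7.30 and 7.55 RPKM in female controls and 5.14 to 6.90 after PDE, and 5.54 to 7.25 against 5.90 to 7.73 in males. Female PDE libraries were mostly lower than their controls, and the male groups overlapped almost fully. Its difference was 0.29 (interval 0.09 to 0.49; limma unadjusted p = 0.00691), while 0 of 17 tested genes of the iron and heme list, which does not hold Pbgs, reached an unadjusted p of 0.05. The mitochondrial ribosomal protein mRpL15 differed by 0.25 (0.07 to 0.43) and was the only one of 70 in its list under that p. The small GTPase Rala differed by 0.13 (0.04 to 0.23), the oxidoreductase Wwox by 0.27 (0.09 to 0.45) and the calcium-binding protein Alg-2 by 0.20 (0.06 to 0.35).

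**Figure D3:**
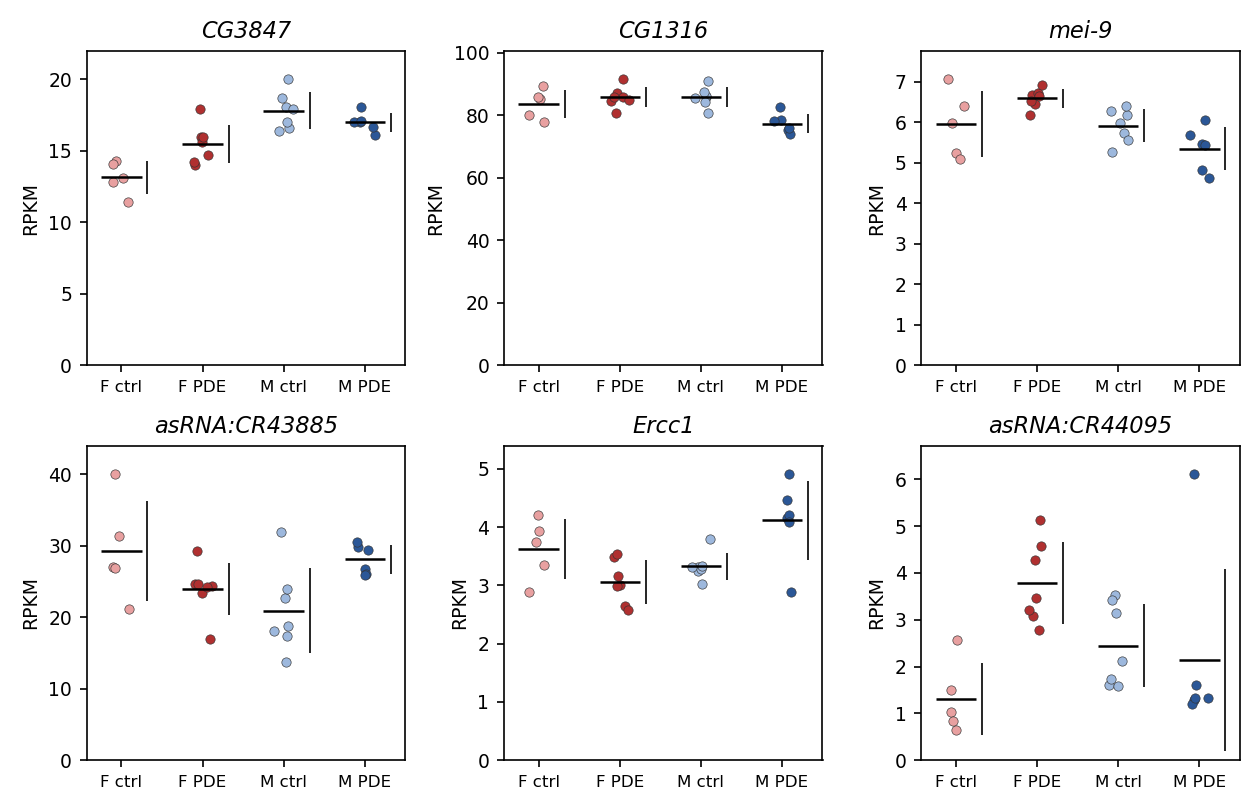
RPKM of 6 genes in each library, by group (F female, M male, ctrl control); points are libraries, horizontal bars group means and vertical lines 1 SD to either side. CG3847, CG1316, mei-9 and asRNA:CR43885 were named by rule, and Ercc1 and asRNA:CR44095 after their values were seen; in asRNA:CR44095 male PDE 6, at 6.11 RPKM, lies far above the other male PDE libraries.

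In 2 genes a single library decided whether the difference was called. The first, asRNA:CR44095 on chromosome 3R, was named after its values were seen. It measured 1.02, 0.637, 0.84, 1.5 and 2.57 RPKM in female controls and 2.78 to 5.13 (median 3.46) in female PDE libraries, all above the controls. Male controls ran from 1.58 to 3.52 (median 2.12), and male PDE libraries from 1.19 to 1.6 except male PDE 6 at 6.11. The difference was -1.33 ± 0.34 (SE; interval -2.04 to -0.63; limma unadjusted p = 0.000699, adjusted p = 0.999), and without male PDE 6 it was -1.6 with an adjusted p of 0.0159. The values rest on few reads, 1 to 27 a library. The gene shares 542 of its 910 bases with Cys, a cystatin gene on the opposite strand, whose own difference was 0.08 (-0.65 to 0.81).

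The second was lncRNA:roX1, the dosage compensation RNA. It measured 25.2, 22.7, 36.8, 9.58 and 22.4 RPKM in female controls and 11.4 to 17.3 (median 13.7) in female PDE libraries. In males it ran from 1869 to 2160 in controls and from 1830 to 2130 after PDE. In females 4 of the 5 controls lay above every PDE library and control 4 below all of them, while the male groups overlapped at far higher levels. The change was -0.60 in females and -0.02 in males, a difference of 0.59 (interval 0.09 to 1.08; limma unadjusted p = 0.0232, adjusted p = 0.999). Without female control 4, one of the 5 retina-rich libraries, it was 0.86 with an adjusted p of 0.0212, and without all 5 it was 0.89 with an adjusted p of 0.214. The partner RNA lncRNA:roX2 differed by 0.02 (-0.46 to 0.50). Of the 11 dosage compensation genes tested 4 differences were positive and 7 negative, with a median of -0.01 against 0.00 over all genes, and the ubiquitin ligase Topors was the other one under an unadjusted p of 0.05, at -0.16 (-0.31 to -0.01).

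The largest differences by size, at least 1 log2 unit in 28 genes, came with large spread inside the groups, and the genes described next were named after their values were seen. The greatest were those of CG3906 (-3.77), Muc68D (-3.04) and CG11672 (-2.56). CG3906 measured 0.389, 0.818, 4.07, 0.64 and 0.693 RPKM in female controls, 0.556 to 583 (median 3.13) in female PDE, 0.229 to 1401 (median 5.77) in male control and 0.648 to 8.36 in male PDE libraries. Muc68D, a mucin, reached 613 RPKM and CG11672 235 RPKM in the same library, male control 6, and 235 and 88.0 in female PDE 5. These 2 libraries were the highest of their groups in all 3 genes. The limma interval for CG3906, -7.80 to 0.26, contained 0 (unadjusted p = 0.0651). Haemocyte markers summed to 613 RPKM in male control 6, above the 362 to 441 of the other male controls. In male controls Fer1HCH averaged 343 RPKM and the whole sum 429, so the sum mostly follows that 1 gene. The part of these markers in the result was not tested.

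A second set, put together after the values were seen and from no fixed list, holds 3 genes of beta-alanine metabolism: b, the aspartate decarboxylase that makes beta-alanine, e, the ebony enzyme that couples it to dopamine and histamine, and Balat, its transporter. The gene b measured 6.47, 79.2, 6.10, 83.2 and 45.9 RPKM in female controls and 18.8 to 81.8 (median 45.4) after PDE. Male controls ran from 56.7 to 116 (median 70.4) and male PDE libraries from 2.63 to 44.6 (median 37.9), without overlap. In females the control values fell both above and below the PDE values. The change of b was 0.65 in females and -1.67 in males, a difference of -2.32 ± 0.87 (SE; interval -4.12 to -0.52; limma unadjusted p = 0.0137, adjusted p = 0.999).

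The companions of b followed its pattern of low libraries. Ebony measured 15.1, 35.4, 20.2, 36.2 and 26.5 RPKM in female controls and 28.1 to 51.2 after PDE, and 23.2 to 46.4 against 20.8 to 43.4 in males, a difference of -0.70 (interval -1.33 to -0.08; limma unadjusted p = 0.0298). Balat, which lies wholly opposite asRNA:CR43469, differed by -0.74 (-1.52 to 0.03) and CG2145 by -2.08 (-3.81 to -0.34). The libraries female control 1, female control 3, male PDE 2 and male PDE 6 held the lowest values of all 4 genes within their groups, for example 10.3 and 13.3 RPKM of CG2145 in those controls against 63.3 to 128 in the other 3, and 13.5 and 35.9 in those PDE males against 93.9 to 170 in the other 4. Libraries low in these genes thus sat among female controls and among exposed males, and the difference of changes is negative in all 4 genes. The direction held in all 38 alternative settings for each of them. The set was chosen after the values were seen, and each fit without 1 library kept most of the low libraries. The kept direction is therefore no independent support.

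**Figure D4:**
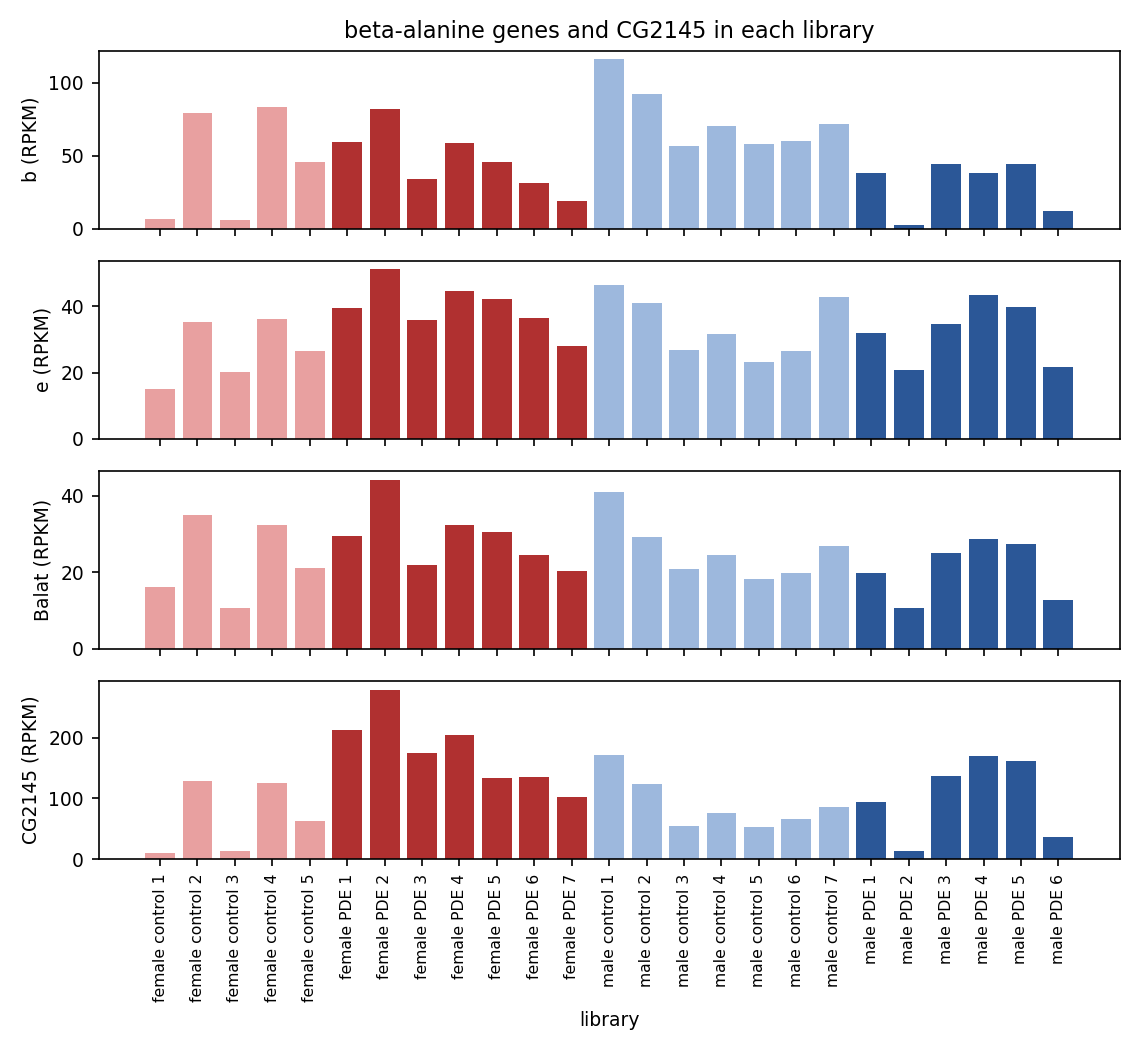
RPKM of b, e, Balat and CG2145 (one panel each, vertical axes from 0) in the 25 libraries, coloured by group. Female control 1 and 3 and male PDE 2 and 6 are the low bars of their groups in every panel.

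Gene lists were described by counts and medians of the difference, beside a median of 0.00 over all genes tested (4020 positive and 3965 negative). Most lists that carry the oxidative stress response lay at that background. The test covered 21 of 26 antioxidant enzymes and Nrf2 regulators, with 13 positive and 8 negative differences, a median of 0.02 and 0 under an unadjusted limma p of 0.05, where the background is 2.22%. Superoxide dismutase Sod1 differed by 0.01 (95% interval -0.30 to 0.32), Sod2 by -0.21 (-0.54 to 0.13) and catalase, Cat, by -0.05 (-0.36 to 0.26). The regulators cnc and Keap1 differed by -0.02 (-0.18 to 0.14) and -0.13 (-0.31 to 0.04). The signs of Sod1, Cat and cnc changed under some alternative settings.

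The detoxifying families were alike. Glutathione S-transferases had 27 of 35 genes tested, a median of 0.01 and 0 under that p. Cytochrome P450s had 31 of 79 tested, a median of 0.04 and 0, and UDP-glycosyltransferases 15 of 35, 0.01 and 0. The same count of 0 held for 61 respiratory chain subunits (median -0.02, 40 negative), 80 cytosolic ribosomal proteins (-0.03, 54 negative), 31 proteasome subunits (0.02), 14 JNK and p53 damage genes (-0.04), 14 of the ER and integrated stress response (-0.02), 14 clock genes (-0.06) and 11 genes of axon degeneration and injury (-0.02).

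Among 19 heat shock proteins and chaperones tested, the Hsp40 cochaperone DnaJ-1 was the only one under an unadjusted limma p of 0.05. It measured 18.1, 17.6, 16.9, 23.0 and 23.6 RPKM in female controls and 21.1 to 27.3 after PDE, and 23.3 to 31.2 against 20 to 26.6 in males. Both sexes overlapped, and the difference was -0.33 (interval -0.58 to -0.07; unadjusted p = 0.0135). Hsp68, a stress-induced Hsp70, stood on the other side with 0.29 (-0.03 to 0.61). In the antiviral list, 1 of 6 genes reached that p: Dcr-2, the nuclease of antiviral RNA interference, at 0.19 (0.01 to 0.36).

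The immune effector peptides had differences in both directions. Of 33 antimicrobial and Bomanin peptide genes 23 were tested, 8 with positive and 15 with negative differences. The 8 positive ones were the attacins AttA, AttB and AttC, the diptericins DptA and DptB, drosocin (Dro), Drosomycin (Drs) and Listericin, with female changes of -2.33 to -0.83, male changes of -0.89 to 0.24 and differences of 0.49 to 1.46. The negative ones comprised all 11 Bomanins tested, short peptides induced through Toll, with differences of -0.85 to -0.07, both Daisho genes, and Drsl4 and Drsl5, which are related to Drosomycin but had the opposite sign. This grouping was made after the values were seen and was not tested. With libraries weighted by limma array weights only 4 of the 11 Bomanins and 0 of the 2 Daisho genes kept a negative difference. With a filter of at least 1 RPKM in 12 libraries, 4 of the 8 positive genes remained with a positive difference. AttB and DptA did not pass that filter. In female PDE libraries AttB reached at most 0.365 RPKM and DptA 0.616, so their female changes rest on values near 0.

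Drs alone reached an unadjusted limma p under 0.05 in that list. It measured 5.08, 17.9, 6.69, 7.56 and 13.3 RPKM in female controls and 3.16 to 5.79 (median 5.23) after PDE, and 2.30 to 5.38 against 2.31 to 11.6 in males. Female PDE libraries were mostly below their controls, and 2 male PDE libraries, 3 and 6, exceeded every male control. Its difference was 1.07 (interval 0.20 to 1.95; unadjusted p = 0.0186, adjusted p = 0.999). Dro measured 32.2, 39.6, 1.49, 2.61 and 4.98 RPKM in female controls against 0.0824 to 4.21 after PDE, and 1.14 to 26.9 against 0.23 to 15.2 in males, a difference of 1.44 with the wide interval -0.82 to 3.71. BomS6 ran from 7.32 to 25.4 RPKM in female controls and from 11 to 73.7 in female PDE libraries, with a difference of -0.85 (-2.11 to 0.42).

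**Figure D5:**
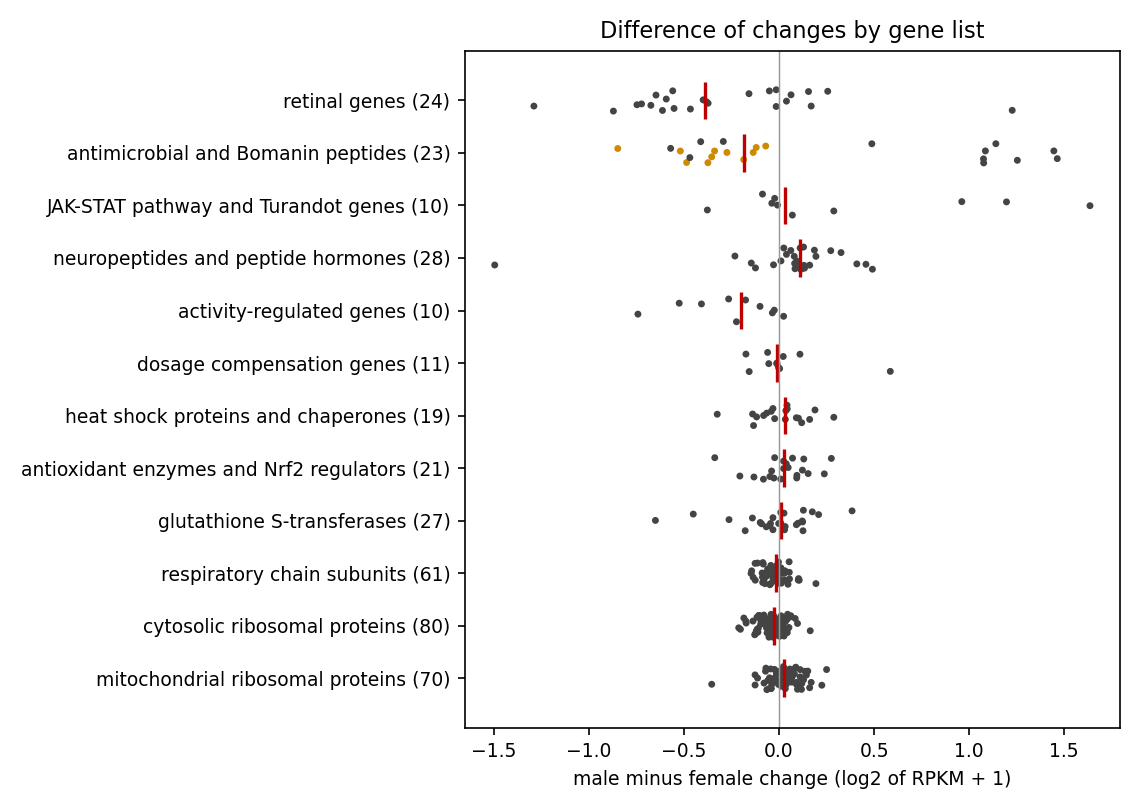
Male minus female change on log2(RPKM + 1) of each tested gene in 12 lists (number tested in brackets); points are genes, with Bomanins in orange, and red bars are list medians. Ribosomal and respiratory genes cluster at 0, while antimicrobial and Bomanin peptides lie on both sides of it; the Bomanins are below 0, and with array weights 4 of the 11 stay there.

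Of 28 neuropeptide genes tested 23 had positive differences, with a median of 0.11. Only 1 of the 28 reached an unadjusted limma p under 0.05, beside 2.22% of all genes tested. The median stayed between 0.07 and 0.17 in all 38 alternative settings. These refit largely the same libraries, and genes are not independent replicates, so the steady median is no independent support. NPF, the neuropeptide F precursor, measured 19.2, 21.9, 15.4, 21.1 and 20.7 RPKM in female controls and 11.2 to 20.1 (median 15.1) after PDE, and 9.13 to 20.5 against 12.1 to 22.7 in males. Values overlapped in both sexes, lower after PDE in most females and not in males. Its difference was 0.49 (interval 0.00 to 0.98; limma unadjusted p = 0.0499), and the stress-related diuretic hormone Dh44 gave 0.41 (-0.04 to 0.86). Akh, the adipokinetic hormone, was the largest exception at -1.5 (-3.40 to 0.41).

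Of the 10 activity-regulated genes 9 had negative differences, and 0 reached an unadjusted limma p of 0.05. Their median of -0.20 lay between -0.27 and -0.06 in all 38 alternative settings, which again refit largely the same libraries. Hr38, an activity-induced nuclear receptor, measured 1.32, 0.733, 2.27, 3.46 and 5.07 RPKM in female controls and 1.67 to 8.41 (median 2.30) after PDE, and 1.29 to 9.01 against 0.818 to 4.51 in males. The groups overlapped in both sexes. Its difference was -0.74 (interval -1.85 to 0.37), and that of sr, the EGR homologue stripe, -0.53 (-1.40 to 0.35). With the replicate number as a block these values were -0.23 and -0.06, and female controls hold no numbers 6 and 7. Arc1 and Arc2, of the same list and called in the averaged change, lay near 0 instead, as given above.

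Lists that mark other tissues had 0 genes under an unadjusted limma p of 0.05. Of 24 retinal genes tested 18 had negative differences, with a median of -0.39, and of -0.38 without the 5 retina-rich libraries. Over the 38 alternative settings that median ran from -1.26 to 0.35 and changed sign in 2. The difference of ninaE turned positive with array weights. The retinal score is made of these same 24 genes, so a fit with the score as a covariate says nothing about them. The opsin ninaE ran from 16.0 to 5299 RPKM in female controls and from 11.9 to 5078 in male PDE libraries, and its difference of -1.29 had the interval -5.53 to 2.95. All 6 muscle markers tested were positive, with a median of 0.47. The summed muscle RPKM ran from 44.4 to 111 in female controls, 50.7 to 91.6 in female PDE, 46.1 to 135 in male control and 45.1 to 163 in male PDE libraries, and its difference of 0.52 gave an exact permutation p of 0.201. Haemocyte markers had a median of 0.09, glial markers -0.05, neuron markers 0.01, eye pigment genes -0.01 and fat body and yolk markers -0.11, while none of the 14 ovary and testis markers in the table reached the level filter.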

How the data were processed

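RNA from 25 brain samples was extracted with a Maxwell RSC simplyRNA tissue kit and made into libraries with a SMART-Seq mRNA kit, per the labels' protocols. Per the submitters' processing notes the reads were aligned with STAR to dm6; for versions, counting tool and strand setting they give nothing. The authors deposited RPKM values for 16060 genes, of which 13581 were above 0 in a library and 15997 had a name in the annotation (Ensembl, dm6 coordinates). In 13580 genes every value came out as whole reads to within 0.001 of a read, in 11894 at the gene's genomic span with introns as length and otherwise at the smallest length that did so. The totals by which the values were scaled were 8.88 to 58.7 M reads, and the recovered reads add up to 99.85 to 99.9% of them. A span that includes introns gives genes with long introns low levels.

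Genes reaching 1 RPKM in 5 or more libraries were fitted on log2(RPKM + 1) with limma 3.58.1 in R 4.3.3 (4 group means, intensity trend, 21 residual degrees of freedom, Benjamini-Hochberg adjustment over 7985 genes, threshold 0.05). The fold scale understates changes of low genes. Library measures were tested by exact two-sided permutation within sex. Tables and figures used Python 3.11.15, pandas 2.3.3, scipy 1.17.1 and matplotlib 3.10.9.

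Named genes were all called genes up to 15 a direction, the 10 smallest p a direction whose highest group averaged 5 RPKM or more, up to 4 per list, and 18 genes in any case; others are said to be chosen after their values were seen, which also holds for the called genes beyond 15 (among them RnrL, Ku80 and sxc). The members and lists were chosen with earlier results of these data known. Alternatives were other pseudocounts, filters, scalings, voom, weights, covariates, a replicate block and leaving out each library. Replicate numbers were not taken as pairs, and no block entered the main fit.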

Additional observations from a re-analysis of the deposited data

Results flagged for a closer look

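The change in library total differed between the sexes by -1.13 on the log2 scale. An exact permutation of exposure labels within each sex, whose null is no change in either, gave this difference p = 0.000947 (adjusted p = 0.0256). The total was the only one of 9 library measures whose difference had an adjusted p under 0.05. RPKM divides by the library total, and the part of depth in the gene results was not tested.

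Single libraries stood apart from the rest of their group in 24 of 204 groups of values examined by Dixon's criterion (11.8%). Some of these genes were named after their values were seen, and CG3906, Muc68D and CG11672 were high in the same libraries. The share therefore cannot be set against a chance rate. Male control 6 accounted for 5 of them: CG3906 at 1401 RPKM, Muc68D at 613, CG11672 at 235, Ercc1 at 3.8 and the haemocyte sum at 613. Female control 3, the smallest library at 8.88 M reads, accounted for 4, with CG3906 at 4.07, Muc68D at 2.15 and Sting at 7.17 RPKM beside that total. Female PDE 5 held Muc68D at 235 and CG11672 at 88.0.

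The other values apart from their group were single. In males they were CG1578 at 30.1 in control 5, Ercc1 at 2.88 in PDE 2, asRNA:CR44095 at 6.11 in PDE 6, the eye pigment sum at 173 in control 4 and 179 in PDE 3, and the fat body and yolk sum at 49.3 in control 1. Library totals apart were 58.7 M in male control 7 and 11.2 M in male PDE 1. In females they were asRNA:CR43885 at 17.0 in PDE 4, DnaJ-1 at 27.3 in PDE 6, CG9377 at 20.5 in control 5, DptA at 17.0 in control 2 and the retinal sum at 10119 in control 4.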

How the results depend on the processing

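The count of genes called in the difference of changes was 0 under each of the 13 alternatives in pseudocount, filter, scaling, test, weights, prior, covariate, block and the 5 retina-rich libraries, and 0 to 1 when 1 library was left out: 1 without female control replicate 4 (lncRNA:roX1, more positive in males) and 1 without male PDE replicate 6 (asRNA:CR44095, more negative). Genes at an unadjusted limma p under 0.05 numbered 177, but 528 (6.61%) with array weights, 346 (4.33%) without female control replicate 3 and 406 (2.99%) without a filter on low values; the cause was not tested. The averaged change called 25 to 41 genes under these settings and 22 to 38 when 1 library was left out, the fewest without male PDE replicate 4; of the 33 genes 21 were shared without the retina-rich libraries and 29 with the replicate block. A replicate block gave 0 genes in the difference of changes and 35 in the averaged change; the deviations of same-numbered libraries correlated at -0.688 to 0.75 (median r 0.081 over 34 pairs) against -0.696 to 0.757 (median -0.026 over 199) for other pairs, so the numbers were not taken as pairs. Of the alternative values of named genes, 7369 differences moved by less than the spread between libraries, 28 moved by more and 2 newly passed the threshold; small ones could change sign. Of the averaged changes of called genes, 1051 stayed past the threshold and 199 did not. Depth limits low genes most, and with 5 female controls differences under about 0.224 log2 units lie inside the interval of the median gene.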
